A study of Mus musculus with 8 samples.

Results

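The interaction of genotype and stimulation is the difference between 2 responses: the change of a gene after stimulation in regulatory T (Treg) cells labelled Stim1/2-deficient, minus its change in wild-type (WT) Treg cells. It drew on all 8 of the 8 RNA sequencing libraries, and it was estimated for the 15419 of 52459 listed genes whose mean over the libraries reached 10 normalized counts. A positive interaction means that a gene rose more, or fell less, under the Stim1/2-deficient label than under the WT label. The comparison asks which inductions and which repressions are lost, kept or larger without Stim1 and Stim2.

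All cells came from female C57BL/6 mice carrying Stim1 fl/fl and Stim2 fl/fl alleles and 1 copy of Foxp3-YFPcre, a Cre recombinase fused to a yellow fluorescent protein and driven from the X-linked Foxp3 gene. In such heterozygous females, cells that do not express Cre (YFPcre-, WT) and cells that do (YFPcre+, Stim1/2-deficient) lie side by side in 1 animal, so the WT cells carry the floxed alleles too. CD4+CD25hi cells of either kind were sorted from pooled spleens and lymph nodes of several mice. They were left unstimulated or kept for 16 h on 1 µg/ml of plate-bound antibodies to CD3 and CD28, which gave 4 groups of 2 libraries. The WT unstimulated libraries are numbered 3 and 4, and the other groups hold numbers 1 and 2. Both genotypes shared each sequencing lane, whereas unstimulated and stimulated libraries lay in different lanes, so that the lane and the stimulation cannot be told apart. Nothing in the labels ties a pool to a day or a litter, and p-values measure only the spread between these pools.

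STIM1 and STIM2 are calcium sensors in the membrane of the endoplasmic reticulum. After T cell receptor engagement empties that store, they open ORAI channels in the plasma membrane, and this store-operated calcium entry activates calcineurin and NFAT transcription factors. CD28 and the receptor also reach NF-kB, MYC and mTOR by routes that do not all need calcium. In Treg cells, antigen receptor signals maintain an effector state marked by IRF4, ICOS and suppressive mediators.

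The libraries held 11851853 to 16306540 reads on genes, each read being worth 0.759 to 1.48 normalized counts. At the floor means here at most 3 reads in both libraries of a group, that is 2.28 to 4.43 normalized counts. The 2 libraries of a group lay more than 2-fold apart for 8.2% of the tested genes in WT unstimulated cells, 12.7% in WT stimulated cells, 18.7% in unstimulated and 18.2% in stimulated libraries labelled Stim1/2-deficient. T cell markers (10 genes) summed to 31019 to 51194 normalized counts in every library. Macrophage markers (18 genes) summed to 13705 and 2182 in the unstimulated libraries labelled Stim1/2-deficient, numbers 1 and 2, and to 368 to 1186 in the other 6. B cell markers (16 genes) summed to 22333 in the first of these libraries and to 2973 to 8112 in the other 7.

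Stim1 was counted at 1139 and 1377 in unstimulated and 645 and 673 in stimulated WT libraries. In those labelled Stim1/2-deficient it was counted at 1538 and 1868, and at 552 and 642. Thus the labelled deficiency was not visible in the total count of Stim1. Stim2 was counted at 906 and 908, then 665 and 782, in WT and at 904 and 744, then 620 and 696, under the other label. Counts per gene do not separate floxed from remaining exons, and for this reason the groups are called by their labels. The interaction was -0.58 on the log2 scale for Stim1 (standard error 0.28, limma adjusted p = 0.62) and 0.01 for Stim2 (standard error 0.28, limma adjusted p = 0.99).

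Stimulation moved largely the same genes in both genotypes. In WT cells 1580 genes rose (10.2% of those tested) and 2013 fell (13.1%). In libraries labelled Stim1/2-deficient 1997 rose (13.0%) and 1855 fell (12.0%), with calls by limma that required 1.5-fold and an adjusted p below 0.05. Of the 1580 genes induced in WT, 1529 (96.8%) had a higher mean after stimulation in the other genotype too, where 50.2% and 48.7% of all tested genes were higher in WT and under the other label. Of them, 1051 (66.5% of the WT list and 52.6% of the 1997) were called induced in both. Of the 2013 genes repressed in WT, 1952 (97.0%) were lower in both, and 1168 (58.0% of the WT list and 63.0% of the 1855) were called in both. The WT and the other response share no library. With 1 WT library left out, 344 to 505 genes were called induced and 580 to 843 repressed in WT. Fewer cells of a type and less RNA per cell cannot be told apart in such bulk samples.

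The interaction itself passed an adjusted p of 0.05 for 0 genes (0%) with limma and 0 with edgeR, and for 37 positive and 13 negative genes with DESeq2. The smallest limma adjusted p was 0.109. With a term for the replicate numbers 1 and 2, limma called 6 positive (Cd83, Cxcl10, Fam46a, Gbp3, Icos and Stx11) and 2 negative genes (Ighg2c and Vcam1). At an unadjusted p under 0.05 and more than 1.5-fold, limma gave 704 positive genes (4.57%) and 543 negative genes (3.52%), edgeR 675 and 557, and DESeq2 637 and 523. Every one of the 50 genes called by DESeq2 was among the 1247 of limma. Both used the same libraries and contrast, so this overlap is no separate support. Of the genes described here, DESeq2 called Icos, Tnfrsf9, Gbp2, Gbp3, Tapbp, Map9, Cxcl10, Trp53inp1, Rab11fip1, Gm7618, Ccrl2, Nfkbie, Rel, Stx11, Cd83, Osbpl3, Gm13571, Irf4, Bhlhe40, Areg, Chac1, Dusp14 and Ifit3 on the positive side. On the negative side it called Gm26625, Vcam1, Clec12a, Col14a1, Cr2, Pitpnm2os2 and E230029C05Rik. The 95% interval of an interaction reached a median of 1.13 on the log2 scale, or 2.18-fold, to either side. Leaving out the unstimulated library 2 labelled Stim1/2-deficient turned 179 positive and 17 negative genes into calls, with the lone library assumed to vary like the other groups. Leaving out the stimulated library 1 of that label gave 1 positive call, and leaving out any of the other 6 gave 0. The counts at the unadjusted p ranged from 290 positive and 220 negative (without WT unstimulated 3) to 1438 positive (without the unstimulated library 2 labelled Stim1/2-deficient) and 985 negative (without the stimulated library 1 of that label).

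To describe responses without choosing genes by their interaction, genes were first called on the average of both responses. That contrast is orthogonal to the interaction in this design. It gave 2776 induced (18.0%) and 2879 repressed genes (18.7%). Among the induced genes, the median response was 1.08 in WT and 1.19 under the other label (log2), and the interaction was negative, that is against the induction, in 1071 of 2776. Among the repressed genes the medians were -1.29 and -1.24, and the interaction was positive in 1627 of 2879. Over all tested genes the median interaction was 0.05.

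These genes were then sorted by their interaction. An induction or repression counted as smaller or larger if the interaction exceeded 1.5-fold at an unadjusted p under 0.05, and a smaller response counted as lost if under 1.5-fold of it remained. It counted as kept if it was called in both genotypes and the 95% interval of the interaction lay within 2-fold. Of the induced genes 76 were smaller, 55 of them lost, 200 were larger, 300 were kept and 2200 were not resolved. Of the repressed genes 150 were smaller, 79 of them lost, 124 were larger, 390 were kept and 2215 were not resolved. These counts moved with single libraries. Without the unstimulated library 2 labelled Stim1/2-deficient, 121 inductions and 421 repressions were smaller, and without library 1 of that pair 32 and 102. Without WT unstimulated library 3 or 4, the smaller repressions numbered 69 or 66, and without library 3 the smaller inductions numbered 31. The larger inductions ranged from 74 (without WT unstimulated 3) to 366 (without the unstimulated library 1 labelled Stim1/2-deficient), and the larger repressions from 37 (without WT unstimulated 3) to 334 (without the stimulated library 1 labelled Stim1/2-deficient). The kept inductions ranged from 33 (without WT stimulated 2) to 335, and the kept repressions from 72 (without WT stimulated 1) to 756, both highest without the unstimulated library 1 labelled Stim1/2-deficient.

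**Figure D1:**
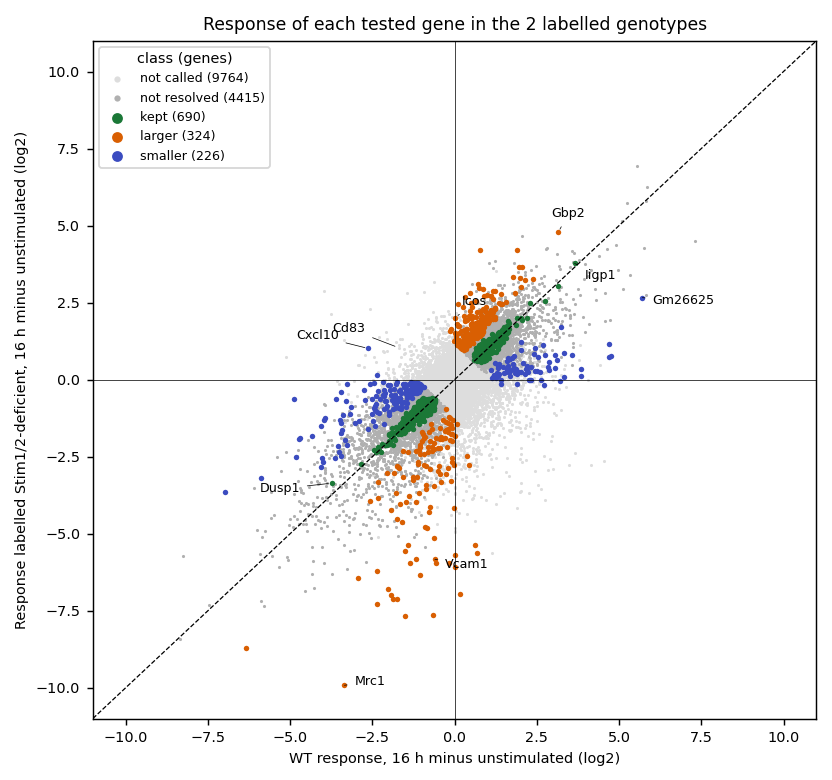
Each point is 1 of 15419 tested genes, with its log2 response to stimulation in WT on the x axis and in libraries labelled Stim1/2-deficient on the y axis, coloured by class, and the dashed line marks equal responses. Most points follow the line, kept genes (690) lie on it, larger (324) and smaller (226) responses lie off it, and Mrc1 and Vcam1 lie far below it.

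Most inductions that were larger began from a lower level. In 170 of the 200 genes the genotypes differed more before than after stimulation, against 164 of the 300 kept inductions. The median genotype difference (labelled Stim1/2-deficient minus WT, log2) was -0.94 in unstimulated and 0.04 in stimulated cells. The class was chosen by the change of that difference, so its 2 medians are bound to lie apart. The 6 genes with the lowest interaction p were Icos, Tnfrsf9, Gbp2, Gbp3, Map9 and Tapbp.

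Icos encodes the inducible costimulator. It was counted at 14389 and 13756 in unstimulated WT libraries and at 13802 and 14688 after stimulation. Under the other label it was counted at 1701 and 2098, and then at 8479 and 6844. Thus Icos was flat in WT cells, rose 4.03-fold in the libraries labelled Stim1/2-deficient (limma adjusted p = 0.00024) and still did not reach WT. Its interaction was 1.99 on the log2 scale (standard error 0.26, limma adjusted p = 0.11, DESeq2 adjusted p = 5.5e-07), and 1.84 to 2.15 with any library left out.

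Tnfrsf9 encodes the costimulatory receptor 4-1BB. It went from 3118 and 2953 to 6435 and 7068 in WT, and from 363 and 353 to 2967 and 2334 under the other label. Both responses were called, at 1.15 and 2.88 on the log2 scale, and all 4 libraries labelled Stim1/2-deficient lay below or within the range of the unstimulated WT pair. The interaction was 1.72 (standard error 0.26, limma adjusted p = 0.17).

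Gbp2 and Gbp3 encode interferon-inducible guanylate-binding proteins, and they began differently. Gbp2 started level, at 671 and 635 in WT and 608 and 574 under the other label, and ended at 5504 and 6086 against 13422 and 19825 (interaction 1.64, standard error 0.29, limma adjusted p = 0.33). Gbp3 stayed at 1931 to 2248 in WT and went from 626 and 809 to 1833 and 2689 under the other label (interaction 1.75, standard error 0.32, limma adjusted p = 0.33). Only Gbp2 of these 2 ended with both libraries labelled Stim1/2-deficient above both WT libraries.

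Map9, a microtubule-associated protein, went from 119 and 93.1 to 118 and 108 in WT and from 23.1 and 22.7 to 127 and 130 under the other label. Tapbp encodes tapasin, which helps load peptide onto MHC class I. It went from 1146 and 982 to 1408 and 1651 in WT, and from 760 and 626 to 2272 and 2659 under the other label. Their interactions were 2.34 and 1.31 (standard errors 0.47 and 0.28, limma adjusted p = 0.42 and 0.48).

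**Figure D2:**
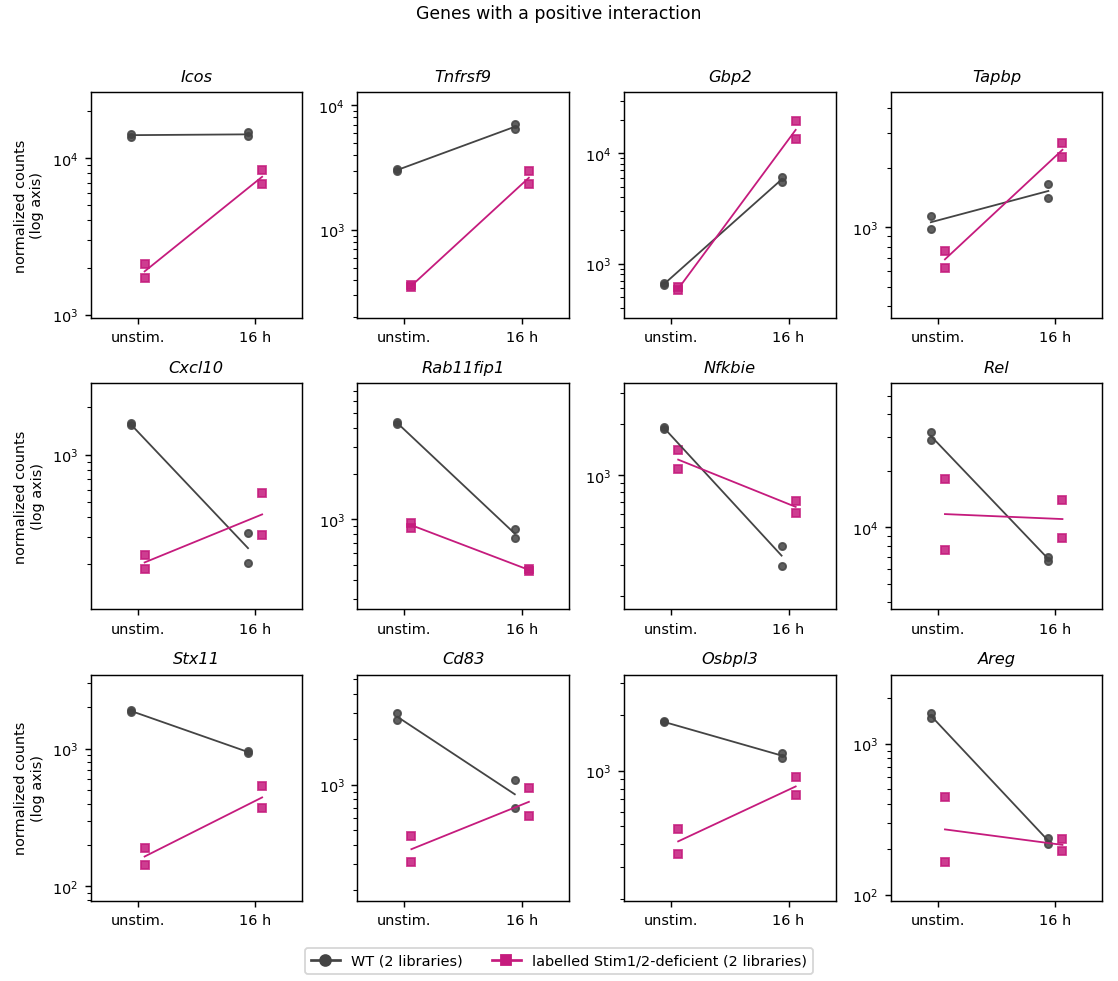
Normalized counts (log axis) of 12 genes with a positive interaction, before and 16 h after stimulation, with 1 point per library and a line through the group means on the log2 scale, circles for WT and squares for libraries labelled Stim1/2-deficient. Icos, Tnfrsf9 and Stx11 start far lower under the Stim1/2-deficient label and approach WT at 16 h, while Cxcl10, Rel and Areg fall in WT and lie level or higher under the other label.

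Among the repressions that were smaller, the 6 genes with the lowest interaction p were Cxcl10, Trp53inp1, Rab11fip1, Gm7618, Ccrl2 and Nfkbie. Before stimulation all 6 were counted higher in both WT libraries than in both libraries labelled Stim1/2-deficient. In the whole class the genotypes differed more before than after stimulation in 84 of 150 genes, against 203 of 390 kept repressions. The median genotype difference of the class was -0.61 in unstimulated and 0.46 in stimulated cells. Its choice by the change of that difference binds these medians to lie apart. Cxcl10 encodes a chemokine that attracts CXCR3+ cells. It was counted at 1581 and 1557 in unstimulated and 316 and 204 in stimulated WT libraries, but at 186 and 228, then 567 and 306, under the other label. The WT pair fell and the other pair rose, each without overlap between time points. Both responses were called (limma adjusted p = 0.00093 and 0.042), and the interaction was 3.63 (standard error 0.45, limma adjusted p = 0.11, DESeq2 adjusted p = 2.3e-10), ranging from 3.19 to 4.08 with any library left out.

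Rab11fip1 encodes an effector of RAB11 in endosomal recycling. It fell in both genotypes, from 4250 and 4352 to 867 and 749 in WT and from 881 and 951 to 470 and 460 under the other label. Hence the unstimulated libraries labelled Stim1/2-deficient already lay near the stimulated WT level. Trp53inp1, a p53-induced stress gene, fell from 6885 and 7844 to 1962 and 2015 in WT and went from 3461 and 3981 to 2481 and 2679 under the other label, where its response of -0.53 stayed under 1.5-fold. The interactions were 1.44 and 1.36 (standard errors 0.25 and 0.24, limma adjusted p = 0.33 for both).

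Gm7618, a predicted gene, fell from 405 and 371 to 27.3 and 35.7 in WT and lay at 41.9 and 56.1, then 25.4 and 37.1, under the other label. Ccrl2, an atypical receptor that binds chemerin, fell from 676 and 610 to 105 and 40.2 in WT and lay between 81.0 and 118 in all 4 other libraries. The interactions were 2.95 and 3.14 (standard errors 0.54 and 0.60, limma adjusted p = 0.33 for both).

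Nfkbie encodes an inhibitor of NF-kB. It fell from 1870 and 1904 to 390 and 299 in WT and from 1086 and 1405 to 607 and 709 under the other label. Both repressions were called, and the WT pair ended below the other pair (interaction 1.55, standard error 0.31, limma adjusted p = 0.41).

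NF-kB subunits and inhibitors as a list (12 genes, all tested) had a median response of -1.04 in WT and -0.11 under the other label. The interaction was positive in 11 of 12 genes, against 53.4% of all tested genes, and 5 of them passed the unadjusted threshold, against 4.57%. Their median interaction of 0.82 was 0.57 and 1.36 without the unstimulated library 1 or 2 labelled Stim1/2-deficient. Rel encodes the lymphoid subunit c-Rel. It fell from 28959 and 32216 to 6611 and 6992 in WT, whereas the other libraries held 7622 and 18158, then 8820 and 13895. These last pairs overlap, and the interaction of 2.08 (standard error 0.50, limma adjusted p = 0.56) came with a WT response of -2.17 against -0.09. Nfkbiz (interaction 1.33, standard error 0.34), Nfkb2 (1.39, 0.37) and Relb (1.86, 0.55) completed the 5, all at a limma adjusted p of 0.56. Tnfaip3, the feedback inhibitor A20, fell in both genotypes, from 66279 and 67129 to 2964 and 2102 in WT and from 27892 and 71529 to 3219 and 2607 under the other label.

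Promoters of 4 of these genes are shown because they hold the kappa-B motif, the 10-base consensus bound by NF-kB. They were chosen after a search of 17 genes: the 16 genes named here as larger induction, smaller repression or positive opposite response, and Rel. RefSeq (GRCm38.p6) gave a promoter for 11 of them, from 250 bases before to 50 bases after a start site. Of the 11 genes, 6 held the motif on either strand at any of their start sites, Tnfrsf9 only at its second and Ccrl2 not at every one. The share per gene over all tested genes was not counted. Counted per promoter instead, the motif occurred in 8.5% of the 32851 promoters of that table and in 10.2% of those of tested genes. The share was 12.0% for genes with a positive interaction and 9.4% for those with a negative one, so the shares lay close together. The NFAT core GGAAA, searched on both strands, occurred in 59.7% of promoters of positive and 63.2% of negative genes against 59.5% of tested genes, and the AP-1 motif TGANTCA in 6.5% and 4.9% against 5.0%. A match describes letters and not binding. Capitals mark kappa-B matches, which on opposite strands may overlap. Cxcl10 lies at chr5:92348840-92349139 on the minus strand, Nfkbie at chr17:45555450-45555749 on the plus strand, Rel at chr11:23770920-23771219 on the minus strand and the second start of Tnfrsf9 at chr4:150927749-150928048 on the plus strand.
Cxcl10: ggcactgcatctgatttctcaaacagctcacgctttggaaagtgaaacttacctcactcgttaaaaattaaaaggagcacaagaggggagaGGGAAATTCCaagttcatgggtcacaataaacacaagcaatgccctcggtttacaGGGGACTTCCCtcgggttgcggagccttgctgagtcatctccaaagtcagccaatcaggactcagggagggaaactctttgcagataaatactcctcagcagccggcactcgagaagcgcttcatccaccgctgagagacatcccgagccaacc
Nfkbie: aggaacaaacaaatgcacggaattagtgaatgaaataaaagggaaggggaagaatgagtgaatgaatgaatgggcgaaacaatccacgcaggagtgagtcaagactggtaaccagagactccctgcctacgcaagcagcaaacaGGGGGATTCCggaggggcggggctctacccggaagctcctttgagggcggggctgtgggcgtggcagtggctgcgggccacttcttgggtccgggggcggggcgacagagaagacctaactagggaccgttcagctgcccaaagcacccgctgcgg
Rel: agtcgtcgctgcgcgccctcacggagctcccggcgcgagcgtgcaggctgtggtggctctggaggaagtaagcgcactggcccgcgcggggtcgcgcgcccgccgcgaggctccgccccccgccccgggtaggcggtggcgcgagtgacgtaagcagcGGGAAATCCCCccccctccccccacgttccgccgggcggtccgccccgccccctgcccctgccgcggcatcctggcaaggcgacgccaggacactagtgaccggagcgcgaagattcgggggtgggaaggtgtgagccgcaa
Tnfrsf9: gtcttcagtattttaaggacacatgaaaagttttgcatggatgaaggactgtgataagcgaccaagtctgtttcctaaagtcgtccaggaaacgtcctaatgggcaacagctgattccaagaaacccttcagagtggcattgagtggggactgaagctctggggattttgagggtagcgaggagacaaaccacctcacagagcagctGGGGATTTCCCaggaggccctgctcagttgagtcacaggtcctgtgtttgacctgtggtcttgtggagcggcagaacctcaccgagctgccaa

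Other genes had opposite responses in the 2 genotypes and, unlike Cxcl10, were not called on the average. Among such genes above the floor with responses of more than 1.5-fold each, the 4 lowest interaction p on the positive side belonged to Stx11, Cd83, Osbpl3 and Gm13571. Stx11 encodes a syntaxin of granule release. It fell from 1925 and 1851 to 935 and 959 in WT and rose from 142 and 191 to 533 and 368 under the other label, without reaching WT (interaction 2.42, standard error 0.34, limma adjusted p = 0.16). Cd83, an immunoglobulin-family surface protein of activated lymphocytes, fell from 2989 and 2668 to 1074 and 697 in WT and rose from 308 and 455 to 959 and 620 under the other label, where the stimulated pairs overlap (interaction 2.74, standard error 0.41, limma adjusted p = 0.17).

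Osbpl3, a lipid transfer protein, went from 1856 and 1832 to 1246 and 1175 in WT, which was not called, and rose from 481 and 354 to 734 and 919 under the other label. Gm13571 fell from 351 and 378 to 136 and 152 in WT and went from 115 and 65.4 to 152 and 179, which was not called. Their interactions were 1.60 and 2.26 (standard errors 0.30 and 0.45, limma adjusted p = 0.33 and 0.41). On the negative side the 4 lowest p belonged to Pitpnm2os2, Gm26531, Gm43544 and E230029C05Rik, an antisense transcript and 3 unnamed loci. Pitpnm2os2 rose from 34.5 and 47.3 to 110 and 129 in WT and went from 155 and 160 to 89.7 and 67.5 under the other label (interaction -2.55, standard error 0.48, limma adjusted p = 0.33). The other 3 had interactions of -2.95, -1.73 and -5.60, and their levels stayed at or below 241 normalized counts.

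Of the 76 inductions that were smaller, 42 carried a Gm, Rik or clone name (55.3%, against 22.0% of tested genes and 3.5% of the larger inductions). The 6 lowest p belonged to Gm38302, Gm38243, Flrt1, Numbl, Gm26625 and AC138284.1. Numbl encodes the endocytic adaptor NUMB-like. It rose from 18.4 and 23.6 to 93.5 and 67.6 in WT and lay at 66.1 and 42.7, then 44.5 and 52.3, under the other label. Flrt1, an adhesion protein of nerve and other tissues, rose from 5.40 and 4.43 to 45.2 and 31.1 in WT and lay at 27.3 and 13.4, then 18.3 and 15.2. In both genes, the pairs under the Stim1/2-deficient label overlapped and lay between the WT levels. The interactions were -2.02 and -2.90 (standard errors 0.61 and 0.88, limma adjusted p = 0.56 for both).

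Gm38302 rose from 131 and 242 to 524 and 439 in WT and lay at 306 and 268, then 276 and 250. Gm26625 rose in both, from 2.16 and 17.7 to 441 and 367 and from 38.8 and 33.4 to 243 and 222, so that its induction was smaller and not lost. In 51 of the 76 genes the genotypes differed more before than after stimulation, with a median difference of 1.10 in unstimulated and -0.58 in stimulated cells. These genes too were chosen by the change of that difference, so its medians are bound to lie apart.

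Egr2 and Egr3, targets of NFAT in T cells, had smaller means of induction without passing that threshold. Egr2 rose from 253 and 230 to 1376 and 1145 in WT and from 191 and 212 to 765 and 536 under the other label, with no overlap at 16 h. Egr3 went from 364 and 400 to 745 and 720 in WT and from 331 and 389 to 436 and 464. Their interactions were -0.71 and -0.61 (standard errors 0.34 and 0.29, limma adjusted p = 0.62 for both). Of the 16 genes of the list of NR4A, EGR and immediate early genes, 12 had a positive interaction (53.4% of all tested genes). The list median was 0.49 (-0.05 without the unstimulated library 1 labelled Stim1/2-deficient). Nab2 and Srf, a corepressor of EGR proteins and a factor of immediate early genes, were the 2 past the unadjusted threshold, which they missed under 8 and 7 of 18 alternatives. Fos fell from 2211 and 2341 to 73.3 and 34.2 in WT and from 3383 and 2098 to 120 and 133 under the other label.

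Repressions that were larger included transcripts of other cell types. The 6 genes above the floor with the lowest p were Vcam1, Gm26583, F2rl2, Clec12a, She and Gm24786. Vcam1, an adhesion molecule of macrophages and endothelium, was counted at 73.4 and 91.6, then 59.2 and 48.6, in WT. Under the other label it was counted at 3027 and 447, and then at 21.4 and 17.7. Clec12a, a lectin of myeloid cells, stood at 174 and 40.1 in the unstimulated libraries labelled Stim1/2-deficient and at 0 to 15.9 in the other 6. For both genes library 1 of that pair held several times the count of library 2, as did the summed macrophage markers (13705 and 2182). The interactions were -5.23 and -5.99 (standard errors 0.97 and 1.5, limma adjusted p = 0.33 and 0.56).

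Of the 16 macrophage markers tested, all 16 had a negative interaction, against 7187 of all 15419 tested genes. Their median was -4.28, and -2.73 without the unstimulated library 1 labelled Stim1/2-deficient. Of them, 12 passed the unadjusted threshold (3.52% of all tested genes). Under the Stim1/2-deficient label 13 were called as falling (12.0% of all tested genes), against 1 in WT (13.1%). Mrc1, the mannose receptor, was counted at 2702 and 346 in unstimulated libraries of that label, at 14.0 and 5.91 in unstimulated WT libraries and at 0 in the 4 stimulated libraries. The complement gene C6 was counted at 485 and 80.1, against 0 to 1.48 in the other 6. C1qa was at 0 in those 6 libraries. B cell markers behaved alike in direction: 15 of 15 tested had a negative interaction, with a median of -2.03 (-0.65 without the stimulated library 2 of that label). Of these 15, 2 passed the unadjusted threshold (3.52% of all tested genes). Called as falling were 1 under that label (12.0%) and 0 in WT (13.1%). The B cell markers summed to 22333 and 6140 in the unstimulated libraries of that label, and to 7223 and 6522 in unstimulated WT libraries. Cr2, complement receptor 2, went from 606 and 176 to 67.5 and 49.8 under that label against 35.6 to 63.1 in WT. The part of these cells in other negative interactions was not tested.

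Of the other 4 named genes, Gm26583 and Gm24786 are unnamed loci, and F2rl2 and She were not markers fixed for another cell type. F2rl2, the protease-activated receptor 3, fell from 405 and 481 to 143 and 87.0 under the Stim1/2-deficient label and stayed at 200 to 272 in WT (interaction -1.83, standard error 0.43, limma adjusted p = 0.56). She, an SH2-domain adaptor, fell from 510 and 326 to 106 and 106 and went from 408 and 316 to 250 and 302 in WT (interaction -1.54, standard error 0.40, limma adjusted p = 0.56). Itga4, the alpha 4 integrin chain, fell from 11389 and 7830 to 2350 and 2356 under that label, and from 4986 and 5966 to 3036 and 2480 in WT (interaction -1.01, standard error 0.30, limma adjusted p = 0.56).

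**Figure D3:**
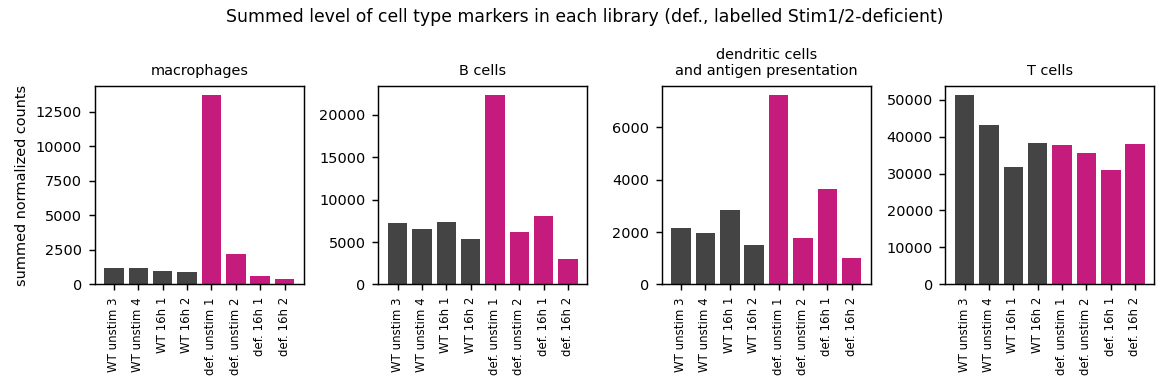
Summed normalized counts of macrophage, B cell, dendritic cell and T cell markers in each of the 8 libraries, with bars from 0, dark for WT and magenta for libraries labelled Stim1/2-deficient (def.). Library 1 of the unstimulated pair labelled Stim1/2-deficient stands highest in the first 3 panels (13705, 22333 and 7236), whereas T cell markers lie between 31019 and 51194 in all 8.

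A further group of genes lay at the floor in at least 1 of the 4 groups, and they are given by their counts alone. On the positive side the lowest p belonged to Cxcl11, Gpr3 and Ifit3b. Cxcl11, a chemokine that shares the receptor of Cxcl10, stood at 39.9 and 31.0, then 3.12 and 0.76, in WT and at 1.05 and 0, then 3.97 and 6.75, under the other label. Gpr3, an orphan receptor, stood at 128 and 121, then 0 and 0, in WT and at 54.5 and 108, then 6.35 and 4.22, under the other label. Col14a1, a collagen, followed Mrc1 and preceded C6 on the negative side, with 193 and 34.7 in the unstimulated libraries labelled Stim1/2-deficient and 2.95 to 38.2 elsewhere.

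Responses that were kept included inductions of interferon-inducible GTPases and of Myc. The 5 kept inductions with the largest average response were Iigp1, Gm12250, Snhg4, Ifi47 and Myc. Iigp1, an immunity-related GTPase, rose from 398 and 516 to 6029 and 5414 in WT and from 733 and 600 to 8867 and 9265 under the other label, which was 3.65 and 3.77 on the log2 scale (interaction 0.12, standard error 0.28). Ifi47, of the same family, rose from 1236 and 1198 to 5817 and 6105 and from 2312 and 1942 to 10665 and 13031 (interaction 0.18, standard error 0.25). Both genes kept their fold of induction at a higher level under the Stim1/2-deficient label at 16 h.

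Gm12250, another such GTPase, rose from 93.9 and 105 to 865 and 909 and from 207 and 194 to 1404 and 1973. Myc rose from 1128 and 1077 to 4677 and 5418 in WT and from 1573 and 892 to 4710 and 4725 under the other label, so that the stimulated pairs overlapped. Snhg4, a host transcript of a small nucleolar RNA, rose from 272 and 275 to 1846 and 1873 and from 265 and 218 to 1780 and 1142. The interactions of these 3 genes lay between -0.20 and -0.10.

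The 5 kept repressions with the largest average response were Dusp1, Plk2, Cpm, Klf6 and Hexim1. Dusp1, a phosphatase that switches off MAP kinases, fell from 5488 and 4653 to 376 and 386 in WT and from 3904 and 3247 to 339 and 354 under the other label (interaction 0.37, standard error 0.26). Klf6, a zinc finger factor, fell from 12327 and 11937 to 2338 and 2071 and from 8501 and 12569 to 2115 and 2158 (interaction 0.19, standard error 0.29). Plk2, Cpm and Hexim1 fell by 2.86, 2.40 and 2.33 on the log2 scale in WT and by 2.75, 2.34 and 2.33 under the other label. Kept means here that a 2-fold difference lay outside the interval. With a limit of 1.5-fold, 0 inductions and 14 repressions qualified.

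**Figure D4:**
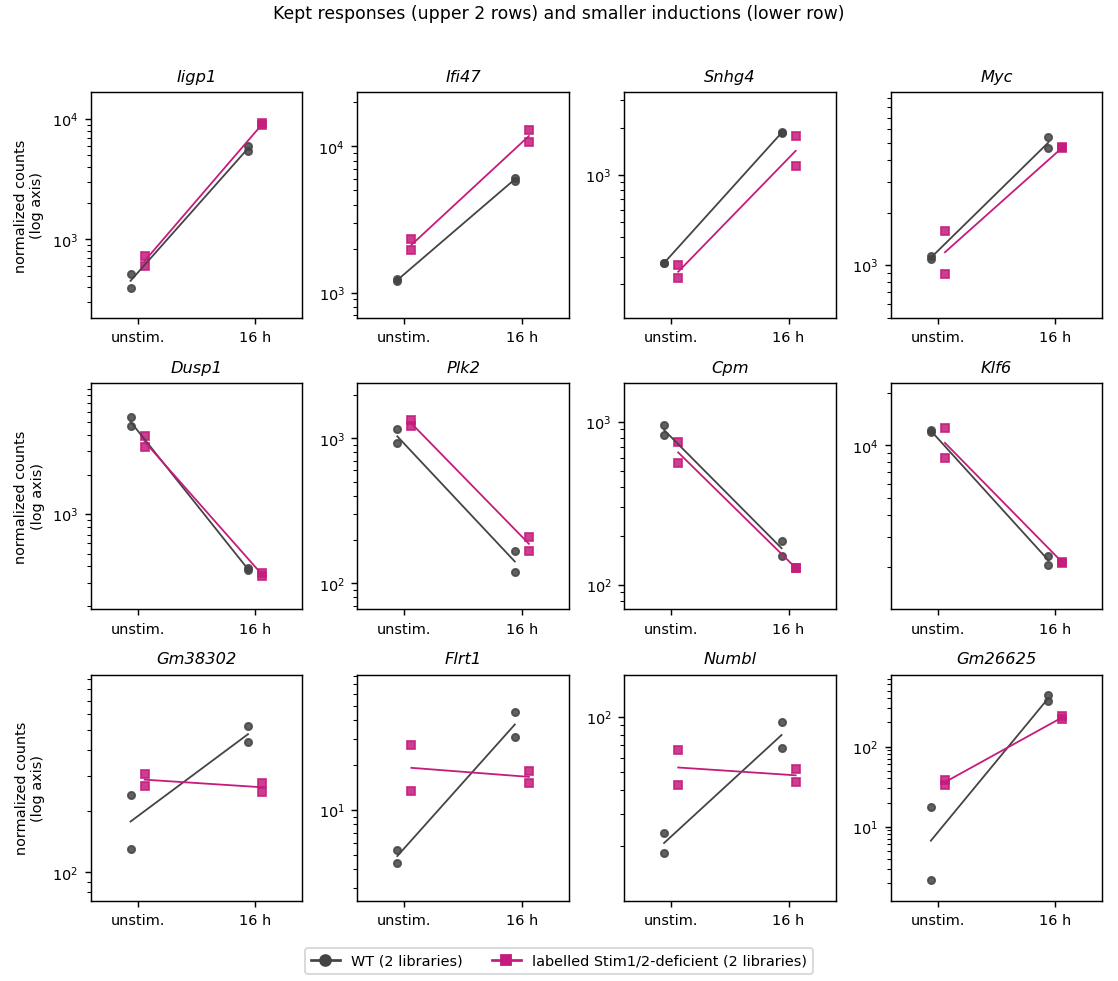
Normalized counts (log axis) of 8 genes with a kept response and 4 with a smaller induction, before and 16 h after stimulation, with 1 point per library and a line through the group means on the log2 scale, circles for WT and squares for libraries labelled Stim1/2-deficient. In the upper rows the lines run in parallel, and in the lower row the WT line is steeper.

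Store-operated calcium entry genes and NFAT genes had no interaction past the unadjusted threshold (0 of 5 and 0 of 10). Over all tested genes 4.57% passed it on the positive and 3.52% on the negative side. Lists this small can therefore hold 0 without differing from other genes. The medians of the 2 lists were 0.13 and -0.08, and the first turned to -0.02 under another scaling. Orai2, a channel subunit, fell from 412 and 425 to 137 and 158 in WT and from 564 and 407 to 216 and 244 under the other label. Rcan1, an NFAT-responsive inhibitor of calcineurin, went from 39.9 and 62.0 to 107 and 84.3 and from 51.4 and 70.8 to 78.6 and 66.7, and neither change was called.

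Effector Treg transcription factors (19 of 20 tested) divided. Irf4 rose in both genotypes, from 3543 and 3498 to 12882 and 11469 in WT and from 862 and 1030 to 13241 and 6722 under the other label, so that the stimulated pairs overlapped (interaction 1.54, standard error 0.39, limma adjusted p = 0.56). Bhlhe40 fell from 15408 and 14558 to 1676 and 1057 in WT and from 2245 and 4239 to 2010 and 776 under the other label (interaction 2.19, standard error 0.60, limma adjusted p = 0.56). Batf and Prdm1, a partner of IRF4 and the repressor BLIMP-1, stayed lower under that label at both times. Batf stood at 881 and 734, then 1379 and 1186, in WT and at 224 and 162, then 464 and 305. Prdm1 stood at 2050 and 1637, then 2187 and 2121, against 382 and 196, then 758 and 454. The list median was 0.37 (0.25 and 0.61 without the stimulated library 1 or 2 labelled Stim1/2-deficient). A positive interaction was found in 13 of 19 members (53.4% of all tested genes), 4 of them past the unadjusted threshold (4.57%).

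The list of TNF receptor superfamily costimulators (10 genes) also holds the adaptor Traf1. In 8 of these 10 genes the response was higher under the Stim1/2-deficient label (53.4% of all tested genes). Their median response was 0.37 in WT and 1.31 under that label. Tnfrsf4 (OX40) rose from 2954 and 2671 to 5513 and 6674 in WT and from 461 and 1177 to 4788 and 4929 under the other label. Tnfrsf18 (GITR) went from 1666 and 1532 to 2175 and 2772, which was not called, and rose from 481 and 964 to 1926 and 2583. Hence GITR pairs overlapped at 16 h, while those of OX40 did not. With Tnfrsf9, Traf1 and Tnfrsf25, 5 genes passed the unadjusted threshold (4.57% of all tested genes). In the CD28 family and inhibitory receptors 10 of 12 genes had a positive interaction (median 0.73), against 53.4% of all tested genes. Icos, Cd5 and Havcr2, 3 genes against 4.57% of all tested, passed the threshold. Cd5 and Havcr2 missed it under 8 and 10 of 18 alternatives, and the median was 0.37 without the unstimulated library 2 labelled Stim1/2-deficient. Ctla4 stood at 37403 and 35119, then 17476 and 21926, in WT and at 6338 and 17333, then 9261 and 9849, where the unstimulated pair lay far apart.

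Suppressive mediators (13 of 14 tested) and Treg identity genes (19) had medians of 0.76 and 0.74. The unadjusted threshold was passed by 6 and 7 genes, all positive (4.57% of all tested genes). The medians were 0.46 and 0.49 without the unstimulated library 2 labelled Stim1/2-deficient. Il10 lay at 779 to 923 in all WT libraries and rose from 50.3 and 56.1 to 253 and 104 under the other label (interaction 1.73, standard error 0.51, limma adjusted p = 0.56). Areg, the tissue repair factor amphiregulin, fell from 1599 and 1477 to 238 and 218 in WT and lay at 165 and 445, then 235 and 195 (interaction 2.41, standard error 0.54, limma adjusted p = 0.51). Thus Il10 remained far below WT at 16 h, whereas Areg lay near the stimulated WT level. Foxp3 lay at 8159 to 11918 in WT and 4258 to 7253 under the other label, with an interaction of 0.15 (standard error 0.36).

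Genes of the gamma chain cytokine receptors and STAT5 (18) had a median interaction of 0.41. Il2ra, the CD25 chain by which the cells were sorted, rose from 11360 and 10408 to 42365 and 50119 in WT and from 7021 and 6821 to 37216 and 48629 under the other label (interaction 0.54, standard error 0.27, limma adjusted p = 0.62). Il2rg, the common gamma chain, fell from 2592 and 2688 to 997 and 1173 in WT, against 2077 and 2005, then 1544 and 1709, where no fall was called. Of the 18 genes, 5 passed the unadjusted threshold, all positive (4.57% of all tested genes).

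Effector cytokines and chemokines were induced in both, with medians of 3.99 in WT and 3.30 under the other label. On the average, 18 of 22 were called induced (18.0% of all tested genes). Of the 22 interactions 0 passed the unadjusted threshold. Over all tested genes 4.57% passed it positive and 3.52% negative, so 0 of 22 does not set the list apart. The list median of -0.37 ranged from -1.43 to 0.87 as single libraries were left out and reached 0.16 under another scaling. Il2 rose from 17.3 and 17.7 to 1470 and 771 in WT and from 19.9 and 4.01 to 2248 and 266 under the other label. Tnf went from 270 and 241 to 970 and 1012 and from 415 and 295 to 1076 and 936, with inductions called in both. Ccl3 stood at 917 and 264, and at 1189 and 287, in the stimulated libraries, and at 9.71 and 13.3, and at 102 and 29.4, in the unstimulated ones. In both stimulated groups library 1 held the higher counts of Il2 and Ccl3, as it did of the summed CD8 T and NK cell markers (1523 and 641 in WT, 2276 and 559 under the other label), and the part of such cells in these values was not tested.

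Proteasome subunits (34) had medians of 0.67 in WT and 1.22, the interaction was positive in 33 of 34 (53.4% of all tested genes), and 12 passed the unadjusted threshold (4.57% of all tested genes). Psma5 rose from 288 and 273 to 666 and 664 in WT and from 104 and 144 to 644 and 587. Psmb8, an immunoproteasome subunit, ended higher, at 3288 and 4619 against 2513 and 2975 in WT, from 1212 and 952 against 1918 and 1387. The interactions of these genes were 1.08 and 1.11 (standard error 0.34 for both, limma adjusted p = 0.56 for both).

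Amino acid transport and ATF4 targets (25) had a median interaction of 0.66, with 10 genes past the unadjusted threshold (4.57% of all tested genes). Psat1, of serine synthesis, rose from 1062 and 923 to 1959 and 2041 in WT and from 395 and 341 to 1610 and 1507 (interaction 1.07, standard error 0.26, limma adjusted p = 0.56). Chac1, a glutathione-degrading enzyme, stood at 46.4 and 48.8, then 8.57 and 0, in WT and at 1.05 and 6.68, then 23.0 and 34.6, under the other label. Aminoacyl-tRNA synthetases (20) and chaperones (23) had medians of 0.51 and 0.50, with 6 and 8 genes past the threshold, against 4.57% of all tested genes. The synthetase Cars stood at 524 and 622, then 493 and 482, in WT and rose from 264 and 322 to 629 and 664 (interaction 1.37, standard error 0.30, limma adjusted p = 0.51).

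Of the ribosome biogenesis genes (35), 21 rose in WT (10.2% of all tested genes) and 24 under the other label (13.0%), with medians of 1.01 and 1.13 and a median interaction of -0.02 (-0.26 and 0.34 without the stimulated library 1 or 2 labelled Stim1/2-deficient). Of the 24 called induced on the average, 8 were kept (10.8% of all induced genes). Nhp2, a component of small nucleolar ribonucleoproteins, rose from 267 and 192 to 1192 and 1166 and from 106 and 107 to 1089 and 686. Cholesterol and fatty acid synthesis (29), glycolysis (20) and the TCA cycle (18) had medians of 0.18, 0.23 and 0.32. Positive past the threshold were 2, 1 and 1 genes, shares near the 4.57% of all tested genes. With single libraries left out the 3 medians ranged from 0.11 to 0.43, 0.09 to 0.38 and 0.21 to 0.46. The lowest came without the unstimulated library 1 labelled Stim1/2-deficient, WT unstimulated 3 and the stimulated library 1 of that label. Scd1, a desaturase, was the 1 negative gene and stood at 435 in the library with most macrophage and B cell transcripts, against 14.3 to 120 in the other 7. The mitochondrially encoded genes (7 of 13 tested) had a median of 0.07, which turned to -0.08 under another scaling.

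DNA replication genes (43 of 44 tested) were called induced in 5 cases in WT, a share near the 10.2% of all tested genes, and in 19 under the other label, against 13.0%. Mcm5, a subunit of the replicative helicase, went from 982 and 719 to 1286 and 1365 in WT and rose from 220 and 163 to 949 and 632 (interaction 1.37, standard error 0.38, limma adjusted p = 0.56). The list median was 0.63 (0.26 and 0.95 without the stimulated library 1 or 2 labelled Stim1/2-deficient). The interaction was positive in 38 of 43 (53.4% of all tested genes), and 9 passed the unadjusted threshold (4.57%). Mitosis genes (38) had a median of 0.67, but it was -0.05 and 1.43 without the unstimulated library 2 or 1 of that label. Cdk1 went from 47.2 and 12.0 to 208 and 65.8 under the Stim1/2-deficient label against 319 and 225, then 396 and 285, in WT. For both lists the levels under that label remained below WT at 16 h, with median genotype differences of -0.68 and -1.69.

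In MYC, cyclin and G1 genes (18 of 19 tested) the median was 0.20 (0.48 without the stimulated library 2 labelled Stim1/2-deficient). Cdk6, a kinase of the G1 phase, went from 8599 and 8114 to 11977 and 11586 in WT, which was not called, and rose from 3879 and 3265 to 10408 and 7732 under the Stim1/2-deficient label (interaction 0.84, standard error 0.27). Ccnd3, cyclin D3, was the 1 negative gene past the threshold and went from 1390 and 947 to 584 and 662, against 413 and 445, then 595 and 560, in WT (interaction -1.31, standard error 0.32, limma adjusted p = 0.56).

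Type I interferon response genes (30) had medians of -0.58 in WT and 0.39 under the other label. The interaction was positive in 27 of 30 (53.4% of all tested genes). The unadjusted threshold was passed by 12 positive (4.57% of all tested genes) and 1 negative gene (3.52%). In WT 13 of the 30 fell (13.1% of all tested genes) and 3 rose (10.2%), and under the other label 2 fell (12.0%) and 7 rose (13.0%). Isg15, a ubiquitin-like modifier, fell from 271 and 248 to 127 and 129 in WT and stood at 256 and 183, then 345 and 313, under the other label (interaction 1.61, standard error 0.37, limma adjusted p = 0.53). Ifit3 fell from 49.6 and 35.5 to 12.5 and 12.2 and stood at 103 and 57.4, then 139 and 209 (interaction 2.83, standard error 0.63, limma adjusted p = 0.51). The median genotype difference of the list was 0.29 in unstimulated and 1.17 in stimulated cells.

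Survival and feedback genes added single members. Bcl2l1, which encodes BCL-XL, lay at 833 to 1077 in WT and rose from 197 and 333 to 814 and 724 under the other label (interaction 1.39, standard error 0.37, limma adjusted p = 0.56). Dusp14 fell from 599 and 555 to 118 and 163 in WT and stood at 37.8 and 28.1, then 89.7 and 27.0 (interaction 2.63, standard error 0.70, limma adjusted p = 0.56). The BCL2 family (12) had a median of 0.66 (0.36 without WT stimulated 2), and the DUSP and Sprouty genes (12) of 0.38, which was -0.04 without the unstimulated library 1 labelled Stim1/2-deficient.

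Quiescence and recirculation genes fell in both, with 20 of 25 called in WT (13.1% of all tested genes) and 19 under the other label (12.0%). The medians were -1.80 and -1.51, and 6 of the 21 repressed on the average were kept (13.5% of all repressed genes). The median interaction of the list was 0.11 and turned to -0.04 under another scaling. Tsc22d3, a glucocorticoid-induced gene, fell from 1215 and 1069 to 65.5 and 75.9 in WT and from 963 and 1742 to 187 and 223 (interaction 1.34, standard error 0.41, limma adjusted p = 0.56). Ccr7, the lymph node homing receptor, fell from 7052 and 5940 to 1365 and 1128 in WT and stood at 1405 and 6749, then 2192 and 2036. Among chemokine receptors and integrins (19 of 20 tested, median 0.34, and 0.13 or 0.89 without the unstimulated or the stimulated library 2 labelled Stim1/2-deficient), Ccr8 went from 605 and 504 to 799 and 751 in WT and rose from 35.6 and 65.4 to 407 and 187 (interaction 2.00, standard error 0.55, limma adjusted p = 0.56). Proximal T cell receptor signalling genes (23) had medians of -0.88 and -0.58, with 6 of the 12 repressed members kept (13.5% of all repressed genes). Zap70, a kinase that binds the engaged receptor, stood at 884 and 700, then 539 and 507, in WT and at 511 and 500, then 663 and 517, under the other label (interaction 0.80, standard error 0.31, limma adjusted p = 0.57).

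**Figure D5:**
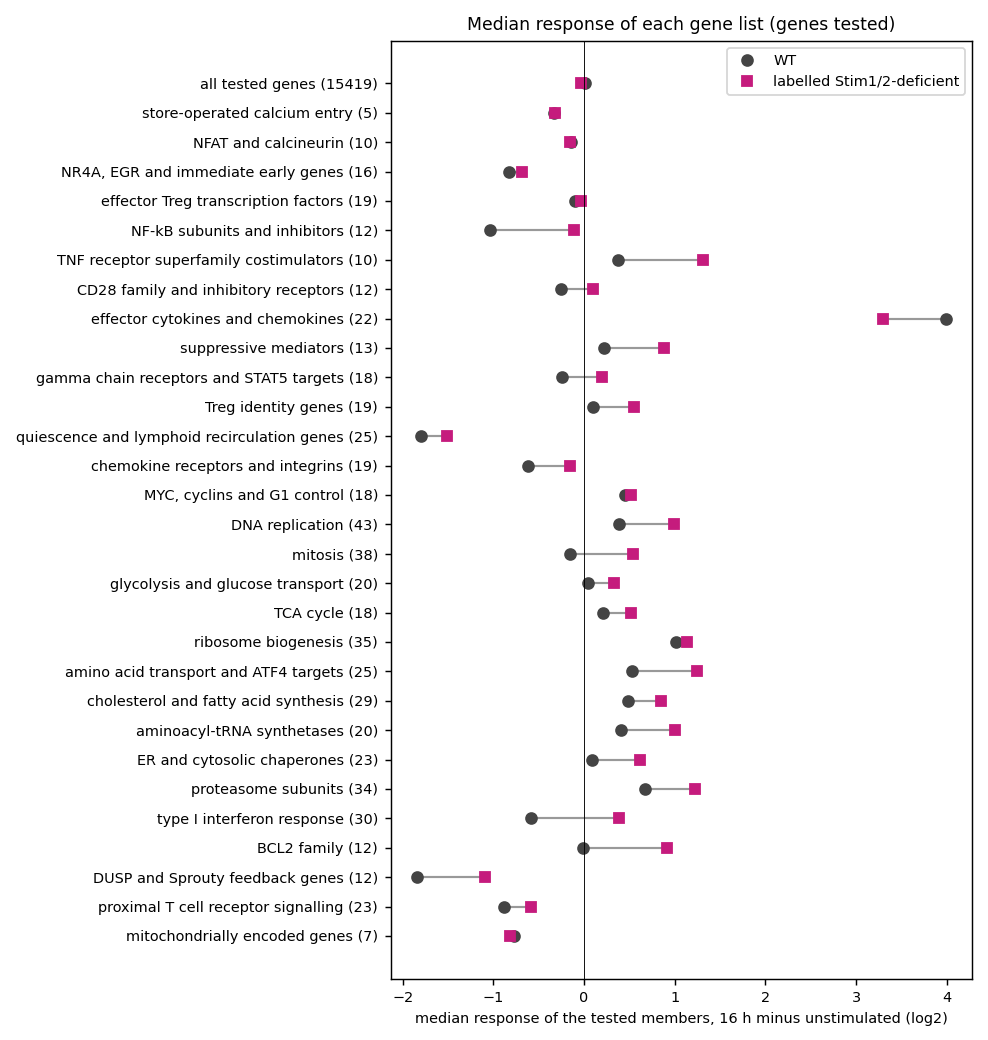
Median log2 response to stimulation of the tested members of 29 gene lists and of all tested genes, with circles for WT, squares for libraries labelled Stim1/2-deficient and a line between them as the difference of medians. The wide gaps toward the squares are those of NF-kB, TNF receptor, interferon and BCL2 family genes, and store-operated calcium entry, NFAT and mitochondrially encoded genes lie close together.

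Across all genes past the unadjusted threshold, the unstimulated genotype difference was the larger of the 2 in 490 of 704 positive genes (69.6%) and in 377 of 543 negative genes (69.4%). For the positive genes the median genotype difference was -0.78 before and 0.26 after stimulation, and for the negative genes 1.18 and -0.57. These genes were chosen by the interaction, which is the second difference minus the first, so the medians are bound to lie apart. For kept responses the unstimulated difference was the larger in 164 of 300 inductions and 203 of 390 repressions. The share over all tested genes was not counted. The balance of the 2 directions depended on the scaling, with 56.5% positive as deposited, 38.2% with libraries set to equal totals and 35.1% with equal upper quartiles. These 2 scalings moved the median interaction of all genes by -0.13 and -0.15, and the list medians given above moved with it. Among genes with a mean of at least 100 the median interaction was 0.13. The split of the average response moved as well, from 49.1% to 78.4% induced with equal totals.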

How the data were processed

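Regulatory T cell RNA was sequenced in 8 libraries. The deposited values are a signal per gene that the authors call normalized counts. DESeq2 is named for the processing, and the scaling step is not given in the sources used here. The notes name bcl2fastq 1.8.4, STAR 2.7 and mm10 and the labels a stranded kit, whereas the methods name another aligner, build and kit, so no coordinates are given but those of RefSeq promoters. The values were whole multiples of 1 read for 100% of values (tolerance 0.1), with 11851853 to 16306540 reads per library.

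Groups followed the labels. Genes with a mean of at least 10 were tested on log2(value + 1), a scale that understates changes of low genes, with limma 3.58.1 (trend, all 4 groups in 1 fit, Benjamini-Hochberg adjustment) in R 4.3.3. A call required 1.5-fold and an adjusted p below 0.05. The recovered reads were also tested with edgeR 4.0.16 and DESeq2 1.42.0. The scripts were tested on simulated data. Named genes were the 6 lowest interaction p per smaller or larger class above the floor, the 5 largest average responses per kept class, the 3 lowest p per direction at the floor and the 4 lowest per direction among opposite responses, plus 1 to 4 members per list with the lowest p or a leading role. Fam46a, Ighg2c and a few further list members were named after their values were seen. The members, lists and rules were chosen with earlier results of these data known. Other pseudocounts, filters, scalings, thresholds, a replicate block and leaving out each library were tried. Promoters came from RefSeq GRCm38.p6.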

Additional observations from a re-analysis of the deposited data

Results flagged for a closer look

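In 19 of the genes named in the text that lay above the floor in every group, both stimulated libraries lay on one side of both unstimulated libraries in WT and on the opposite side under the Stim1/2-deficient label. The difference was tested for each as the limma interaction, and its adjusted p missed 0.05 for all 19. Stx11, Cd83, Osbpl3, Gm13571, Pitpnm2os2, Gm26531, Gm43544 and E230029C05Rik had been named for opposite responses, so their opposite directions were fixed by that choice. Others were named for a low interaction p or as list members, and the share over all tested genes was not counted. No least size was required, and the WT response of Gbp3 was -0.12 (limma adjusted p = 0.74). Positive values on the log2 scale were 3.63 for Cxcl10, 2.74 for Cd83, 2.42 for Stx11, 2.26 for Gm13571, 1.75 for Gbp3 and 1.60 for Osbpl3. Among list members they were 6.85 for Chac1, 2.83 for Ifit3, 1.86 for Relb, 1.73 for Il10, 1.61 for Isg15, 1.39 for Nfkb2, 1.37 for Cars and 0.80 for Zap70. The value for Chac1 rests on libraries with few reads, as its counts above show, and ranged from 4.66 to 9.02 under the alternatives. Negative values were -5.60 for E230029C05Rik, -2.95 for Gm26531, -2.55 for Pitpnm2os2, -1.73 for Gm43544 and -1.31 for Ccnd3. E230029C05Rik stood at only 17.5 and 0.84 in the stimulated libraries labelled Stim1/2-deficient. Of the 19, DESeq2 called Cxcl10, Cd83, Stx11, Gm13571, Gbp3, Osbpl3, Chac1, Ifit3, E230029C05Rik and Pitpnm2os2.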

How the results depend on the processing

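Of 103 named genes followed, 75 had an unadjusted interaction p under 0.05 and 61 of these kept it under every alternative tried, while 0 of the 75 changed direction. The exceptions were Nab2, Srf, Tnfrsf18, Traf1, Tnfrsf25, Havcr2, Cd5, Ccr7, Cdk6, Zap70, Scd1, Mrc1, C6 and C1qa. Many of the genes followed were named for a low interaction p in the same 8 libraries. Keeping it when these libraries are fitted again therefore describes these genes and does not test them. Of 36 lists, the median interaction changed sign for 4 under another scaling and for 10 without 1 library. With DESeq2, 37 positive and 13 negative interactions were called. With equal totals, the average response gave 5437 induced and 1500 repressed genes, the WT response 4261 and 975, and the response labelled Stim1/2-deficient 3792 and 1077. There, 467 interactions were positive at the unadjusted p, inductions were smaller for 204, kept for 998 and lost for 121 genes, and repressions smaller for 64, kept for 154 and lost for 33. With equal upper quartiles, 432 interactions were positive, 128 inductions larger, 97 repressions smaller, 187 larger and 49 lost. With every gene above 0, 1263 interactions were negative and 226 repressions larger, and 43.6% of unadjusted interactions were positive. With a mean of at least 100, 203 were negative, 36 inductions smaller, 27 lost and 55 repressions larger, and 74.1% were positive. Quantile normalization kept 490 inductions. A 2-fold threshold gave 1715 induced genes, 402 positive interactions, 50 smaller, 78 larger and 126 kept inductions, and 78 smaller, 150 kept and 48 lost repressions. A kept limit of 1.5-fold left 0 inductions and 14 repressions. The cause of these shifts was not tested.

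The replicate block, a term for numbers 1 and 2, gave 6 positive calls (Cd83, Cxcl10, Fam46a, Gbp3, Icos and Stx11), 2 negative calls (Ighg2c and Vcam1) and 202 larger repressions. The correlations of same-numbered deviations were 0.167, 0.257 and 0.114, and the libraries share only a number.

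Leaving out 1 library gave 2116 to 2938 induced and 2156 to 2949 repressed genes on average, 344 to 1912 and 580 to 2370 in WT, and 1196 to 2125 and 1324 to 2104 under the other label. Adjusted interactions numbered 0 to 179 positive and 0 to 17 negative, and unadjusted ones 290 to 1438 and 220 to 985. Inductions were smaller for 31 to 121, larger for 74 to 366, kept for 33 to 335 and lost for 14 to 83 genes. Repressions were smaller for 66 to 421, larger for 37 to 334, kept for 72 to 756 and lost for 37 to 247. The share of positive interactions ranged from 45.4% to 66.2%.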

Other observations

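Genes with a Gm, Rik or clone name were spread unevenly. They made up 22.0% of tested genes, 42.5% of those with a negative and 6.96% of those with a positive interaction at the unadjusted threshold, and 38.7% of the larger repressions. They were 3.0% of the kept inductions and 2.05% of the kept repressions, for which a narrow interval was required. A group at the floor occurred in 81 of the 543 negative and 18 of the 704 positive genes, against 490 of all 15419 tested genes.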
